A study of Mus musculus with 6 samples.

Results

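Genes that bring cholesterol into adrenal cells, sense it, store it as ester, move it and release it were read on arrays of whole adrenal glands from male mice aged 12 weeks. The members were Scarb1, Insig1, Srebf2, Soat1, Lipe, Npc1, Abca1, Abcg1 and Apoe, taken by gene symbol from the platform annotation. Of these 9 genes, 7 had a probe set there, Srebf2 and Soat1 had none, and the 7 genes held 9 of the 12422 probe sets that are not array controls. 7 of the 9 probe sets, of 6 genes, were bright enough to be tested, and the 2 others were dim. The study set 3 mice labelled chromogranin A (Chga) knockout beside 3 labelled wild type, 1 array per mouse. Both groups are attributed in the labels to the same published knockout line. Beyond that, the labels give no strain background and no treatment, and they do not say which cells carry the deletion.

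The adrenal cortex makes steroid hormones from cholesterol, which it takes mostly from circulating lipoproteins and keeps as cholesteryl ester in lipid droplets. When cholesterol in the endoplasmic reticulum is low, the transcription factor SREBP2, encoded by Srebf2, is released from retention by INSIG proteins and switches on genes of synthesis and uptake. When oxysterols are high, the nuclear receptors LXR alpha and LXR beta switch on genes of efflux, among them Abca1, Abcg1 and Apoe. The gland also holds medullary chromaffin cells, vessels and macrophages, and in whole tissue fewer cells of a type and less RNA per cell cannot be told apart.

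The promoter of Abca1 is shown because both probe sets of that gene had lower values in the knockout, and that of Hmgcs1 because this gene of cholesterol synthesis fell on the same arrays. Each window runs from 250 bases before to 50 bases after the RefSeq start in GRCm38.p6 and is written 5′ to 3′ on the gene's own strand. That of Abca1 is chr4:53159846-53160145 on the minus strand, and that of Hmgcs1 is chr13:119690101-119690400 on the plus strand. In Abca1 the capitals mark an E-box and a relaxed LXR direct repeat. In Hmgcs1 they mark the sterol regulatory element core and the NF-Y boxes. Hmgcs1 was 1 of 8 synthesis genes that fell. Of the 16 synthesis genes with a window it alone held that core, so its window does not stand for theirs.

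Abca1: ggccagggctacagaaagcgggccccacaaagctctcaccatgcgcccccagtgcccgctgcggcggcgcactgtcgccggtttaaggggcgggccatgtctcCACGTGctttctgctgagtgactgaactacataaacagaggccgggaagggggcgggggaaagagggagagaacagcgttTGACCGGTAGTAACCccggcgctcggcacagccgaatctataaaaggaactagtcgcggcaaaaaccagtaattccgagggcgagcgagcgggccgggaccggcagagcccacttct
Hmgcs1: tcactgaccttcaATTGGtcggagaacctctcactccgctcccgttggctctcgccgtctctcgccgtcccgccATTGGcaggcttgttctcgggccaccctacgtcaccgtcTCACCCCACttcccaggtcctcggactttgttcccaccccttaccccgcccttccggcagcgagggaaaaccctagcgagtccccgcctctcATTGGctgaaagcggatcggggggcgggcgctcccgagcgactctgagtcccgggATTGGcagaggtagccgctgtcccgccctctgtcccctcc

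Both strands of every window were searched for TCACNCCAC, the core of the sterol regulatory element, which SREBP proteins bind, and for CCAAT, the NF-Y box, whose factor often works beside them. The core stood in 1.44% of the 27025 genes with a window, in none of the 6 members with a window and in 1 of 16 genes of cholesterol synthesis, Hmgcs1, at position -137. The NF-Y box stood in 41.1% of all genes, in the members Insig1, Srebf2 and Soat1, and in 15 of the 16 synthesis genes. Hmgcs1 held it at positions -237, -176, -45 and 11, each time on the opposite strand, where it reads ATTGG. Lipe, Abca1 and Apoe held neither motif. Scarb1, Npc1 and Abcg1 had no entry in the promoter table.

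An E-box, CACGTG, and a relaxed form of the LXR direct repeat, GGTNA and GGTCA joined by NNNNN, were added after the values were seen. The repeat was written to fit the LXR element known from this promoter, so its presence in Abca1 is no independent match. It started at position -67 of Abca1, on the opposite strand, and stood in 0.226% of all genes and in no other member with a window. The E-box stood at -147 in Abca1, at -101 in Insig1 and at -155 in Lipe, and in 8.09% of all genes. Of the 16 synthesis genes with a window, 3 held the E-box (Hsd17b7, Sc5d and Dhcr7) and 0 held the repeat. No matches in the printed windows overlapped one another. Each match describes letters in these windows and was not tested as a site.

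The arrays were deposited as MAS5 signals, linear brightness values scaled to a common level, so a signal is comparable between arrays for 1 probe set but not between probe sets. Chga, the targeted gene, read 46719, 30213 and 35306 on wild-type arrays 1 to 3 and 1188, 858 and 951 on knockout arrays 1 to 3 on its brighter probe set, as the labels state. Whether that probe set lies in the deleted part was not analysed here. Genes of cortical enzymes (Cyp11a1 and Cyp21a1) and of medullary enzymes (Th and Pnmt) were above the limit for testing on every array, with Th, for example, between 18716 and 26543. Some transcripts of skeletal muscle were high on knockout arrays 2 and 3. Acta1 read 565, 32131 and 13869 on knockout arrays 1 to 3 and at most 180 on the wild-type arrays, and Myh1, too dim on average to test, read 163, 10290 and 4516 and at most 157. The 8 muscle genes tested summed to 10254, 65063 and 34263 on knockout arrays 1 to 3 and 10792 to 11171 on the wild-type arrays, and 5 of the 8 had higher values in the knockout. For Gapdh the 3′ signal divided by the 5′ signal, a sign of RNA or cRNA integrity, was 0.831 on knockout array 1, 1.30 and 1.29 on knockout arrays 2 and 3, and 0.762 to 0.806 on the wild-type arrays. The same ratio for beta-actin was 1.32, 1.69 and 1.72 on knockout arrays 1 to 3 and 1.14 to 1.22 on the wild-type arrays. On both ratios knockout array 1 too lay above every wild-type array. Where these differences bear on a result, the value from a fit without knockout arrays 2 and 3 is given too, called knockout array 1 alone. That fit takes the lone array to vary as the wild-type arrays do.

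No member passed the test between the genotypes. Abca1 had lower values in the knockout on both probe sets and Npc1 had higher values, while Scarb1, Lipe, Abcg1 and Apoe had overlapping groups. Over all 7453 probe sets tested with limma at an adjusted p under 0.05, 33 passed, or 0.443% (0.161% higher and 0.282% lower in the knockout). Of the 7 member probe sets 0 passed, with adjusted p from 0.311 to 0.941. At an unadjusted p under 0.05, reached by 11.3% of all probe sets, there were 3 of the 7: 1 higher (Npc1), beside 5.06% of all, and 2 lower (both of Abca1), beside 6.25% of all. The knockout and wild-type arrays did not overlap for 2 of the 7 member probe sets and for 16.4% of all, where the knockout lay above in 7.55% and below in 8.83%. The members' median log2 change was 0.08, beside -0.01 over all probe sets tested. Higher and lower values offset each other in that median. Without regard to sign, the median was 0.46 for the members and 0.19 over all.

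**Figure D1:**
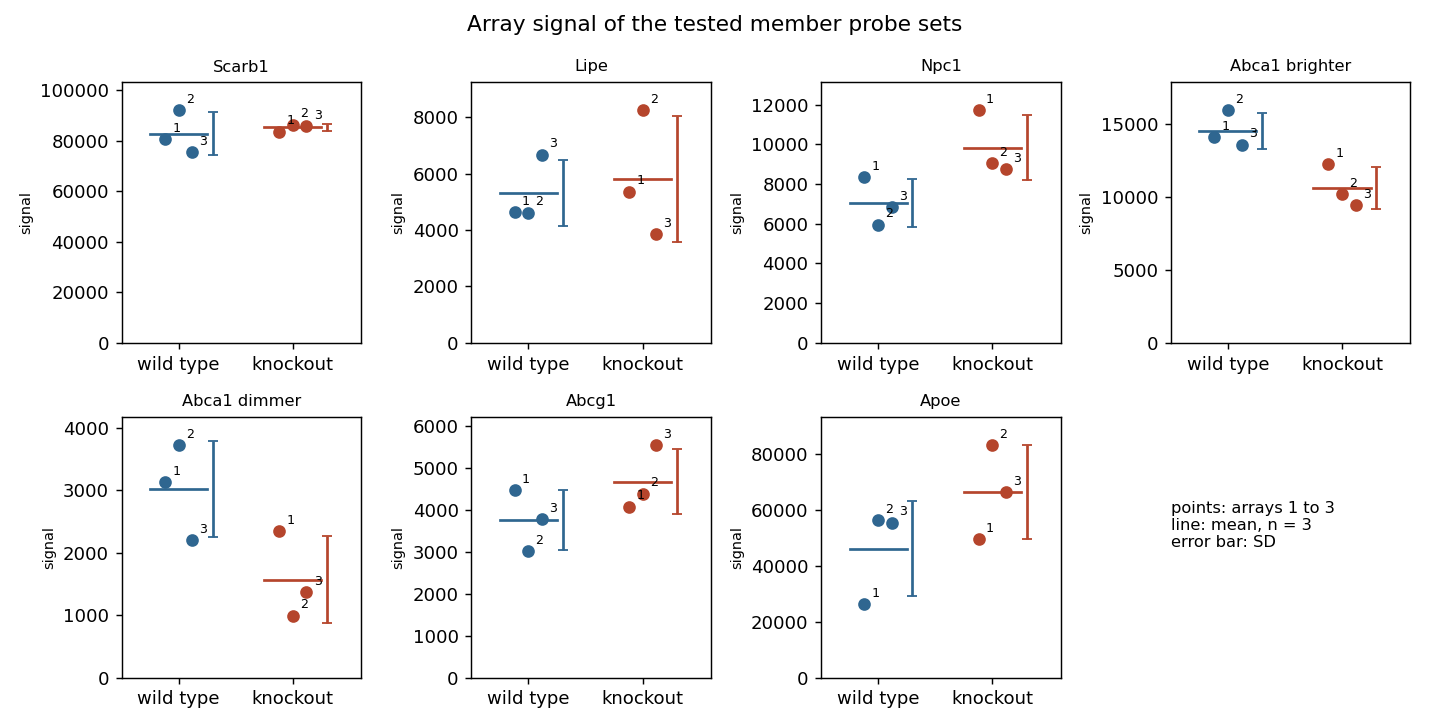
MAS5 signal of the 7 tested member probe sets on wild-type (blue) and knockout (red) arrays, numbered 1 to 3, with the mean as a line and the SD as an error bar (n = 3). The groups are apart for Npc1 and for the brighter probe set of Abca1 and overlap for the others.

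Scarb1 encodes the receptor that takes cholesteryl ester from high-density lipoprotein, the main route of uptake in the rodent adrenal. It read 80723, 91980 and 75520 on wild-type arrays 1 to 3 and 83549, 86345 and 85702 on the knockout arrays. The knockout arrays all lay within the range of the wild-type arrays. Scarb1 had a log2 change of 0.05 ± 0.11 (SE), with a 95% interval from -0.21 to 0.30, or 0.865 to 1.23 as a ratio of knockout to wild type, and a limma adjusted p of 0.91. The sign depended on the scaling, with -0.01 under quantile and -0.02 under cyclic loess normalization.

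The sensing genes could hardly be read. Insig1, which holds the SREBP complex in the endoplasmic reticulum and is itself a target of SREBP, read 26.8, 57.0 and 13.8 on the wild-type arrays and 26.4, 18.9 and 139 on the knockout arrays. These signals lay far under 582, the limit below which probe sets were not tested,, at percentile 2.79 of the array by rank. The groups overlapped, with knockout array 3 highest. Srebf2, the gene of SREBP2 itself, had no annotated probe set, and neither did Insig2 or Scap.

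Lipe encodes hormone-sensitive lipase, which releases cholesterol from stored ester in the adrenal cortex and fatty acids in adipocytes. It read 4648, 4620 and 6675 on the wild-type arrays and 5361, 8244 and 3858 on the knockout arrays. The knockout arrays held both the highest and the lowest value. Lipe had a log2 change of 0.08 ± 0.27 (SE), with a 95% interval from -0.53 to 0.70 and a limma adjusted p of 0.941. It was -0.20 without knockout array 2, 0.34 without knockout array 3 and 0.03 with knockout array 1 alone. The summed signal of 9 adipocyte markers ranged from 56316 to 94906 on knockout and from 42908 to 81944 on wild-type arrays, and 6 of the 9 had higher values in the knockout. That sum was highest on knockout array 2, where Lipe was highest too, but on knockout array 3, where Lipe was lowest, it was 74395. Its part in the Lipe values was not tested. Soat1, whose enzyme makes cholesteryl ester for storage, had no annotated probe set.

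Npc1 encodes the lysosomal membrane protein that lets cholesterol from ingested lipoprotein leave the lysosome. It read 8345, 5963 and 6839 on the wild-type arrays and 11718, 9039 and 8768 on the knockout arrays. All 3 knockout arrays lay above all 3 wild-type arrays, but knockout arrays 2 and 3 were close to wild-type array 1. This was a log2 change of 0.48 ± 0.18 (SE), a 1.40-fold higher mean on the log scale with a 95% interval from 1.06 to 1.84. This did not pass over all probe sets (limma adjusted p = 0.389, unadjusted p = 0.0224). With knockout array 1 alone the value was 0.75 (adjusted p = 0.753), and leaving out single arrays gave 0.35 to 0.61. Npc2, which hands cholesterol to NPC1 within the lysosome, had a log2 change of -0.07.

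Abca1 encodes the transporter that loads cholesterol and phospholipid onto lipid-poor apolipoprotein at the cell surface. Its brighter probe set read 14099, 15960 and 13610 on the wild-type arrays and 12251, 10182 and 9472 on the knockout arrays. All 3 knockout arrays lay below all 3 wild-type arrays. The log2 change was -0.46 ± 0.14 (SE), a 1.37-fold lower mean on the log scale, with a 95% interval from -0.78 to -0.13 (limma adjusted p = 0.311, unadjusted p = 0.0107).

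The other Abca1 probe set read 3131, 3723 and 2202 on the wild-type arrays and 2343, 994 and 1368 on the knockout arrays. Knockout array 1 lay above wild-type array 3, so the groups overlapped, while knockout arrays 2 and 3 were the lowest of all. On this probe set the log2 change was -0.99 ± 0.32 (SE), 1.99-fold lower, with a 95% interval from -1.72 to -0.27 (limma adjusted p = 0.325, unadjusted p = 0.0123). Both probe sets read the same RNA samples and are not separate evidence.

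The size of the Abca1 difference moved with the knockout array used. With knockout array 1 alone, which had a muscle sum below the wild-type arrays, though a higher Acta1 signal, and the lowest Gapdh ratio of the 3 knockout arrays, the log2 changes of the 2 probe sets were -0.25 and -0.33. Without knockout array 1 they were -0.56 and -1.33, and the adjusted p were 0.0909 and 0.0508. The part of RNA integrity or of muscle tissue in the Abca1 values was not tested.

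**Figure D2:**
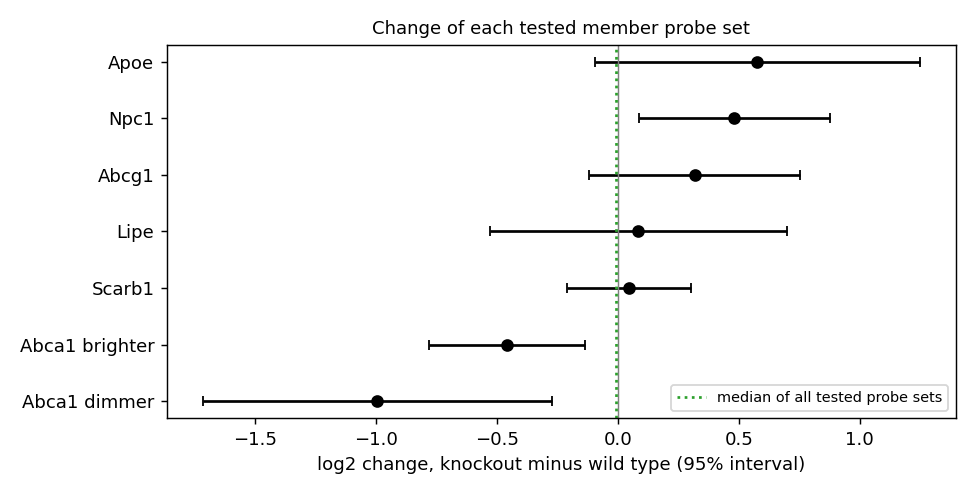
Log2 change (knockout minus wild type) of the 7 tested member probe sets with 95% intervals from limma, and the median over all tested probe sets as a dotted line. The intervals of Npc1 and of both Abca1 probe sets leave out 0 before any adjustment for the number of probe sets, and no adjusted p is under 0.311.

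Abcg1, whose transporter passes cholesterol on to high-density lipoprotein, read 4476, 3029 and 3781 on the wild-type arrays and 4080, 4392 and 5552 on the knockout arrays. The groups overlapped, since wild-type array 1 lay above knockout arrays 1 and 2. The log2 change was 0.32 ± 0.19 (SE), with a 95% interval from -0.12 to 0.75 (limma adjusted p = 0.563). It was 0.19 without knockout array 3, 0.17 without wild-type array 2 and 0.13 with knockout array 1 alone.

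Apoe encodes apolipoprotein E, a cholesterol acceptor made in the adrenal cortex and by macrophages. Its bright probe set read 26374, 56180 and 55390 on the wild-type arrays and 49529, 83066 and 66236 on the knockout arrays. Knockout arrays 2 and 3 lay above the wild-type arrays, and knockout array 1 lay between them. The log2 change was 0.58 ± 0.30 (SE), with a 95% interval from -0.09 to 1.25 (limma adjusted p = 0.50). It was 0.22 without wild-type array 1, the lowest array, and 0.19 with knockout array 1 alone. The dim Apoe probe set read 155 to 239 on the wild-type and 40.05 to 281 on the knockout arrays and was not tested.

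Macrophage markers, like Apoe, were highest on knockout arrays 2 and 3, as were the summed muscle, endothelial and medullary markers. Summed over the markers tested, their signal reached 30177, 50937 and 43341 in knockout arrays 1 to 3, beside 27138, 25328 and 30064 in wild-type arrays 1 to 3. The order differed from that of Apoe among the wild-type arrays, where array 2 had the lowest macrophage sum and the highest Apoe. The adipocyte sum was lowest on wild-type array 1, at 42908, and highest on knockout array 2, at 94906, as was Apoe. All 13 macrophage markers tested had higher values in the knockout, with a median log2 change of 0.63, or 0.01 with knockout array 1 alone. The median over all probe sets tested was -0.01. 0 of the 13 passed over all probe sets in limma. An unadjusted p under 0.05 was reached by 6 of the 13, each with higher values. Over all probe sets 11.3% reached it, and 5.06% with higher values. Among the defining macrophage markers, Csf1r had a log2 change of 0.91 on its brighter probe set and 0.12 on the other. Cd68 had one of 0.28, while Adgre1, Fcgr3, Msr1 and Itgam were too dim to test. Both Abca1 probe sets were lowest on knockout arrays 2 and 3. The part of macrophages or adipocytes in the values of Apoe, Abcg1 and Abca1 was not tested.

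**Figure D3:**
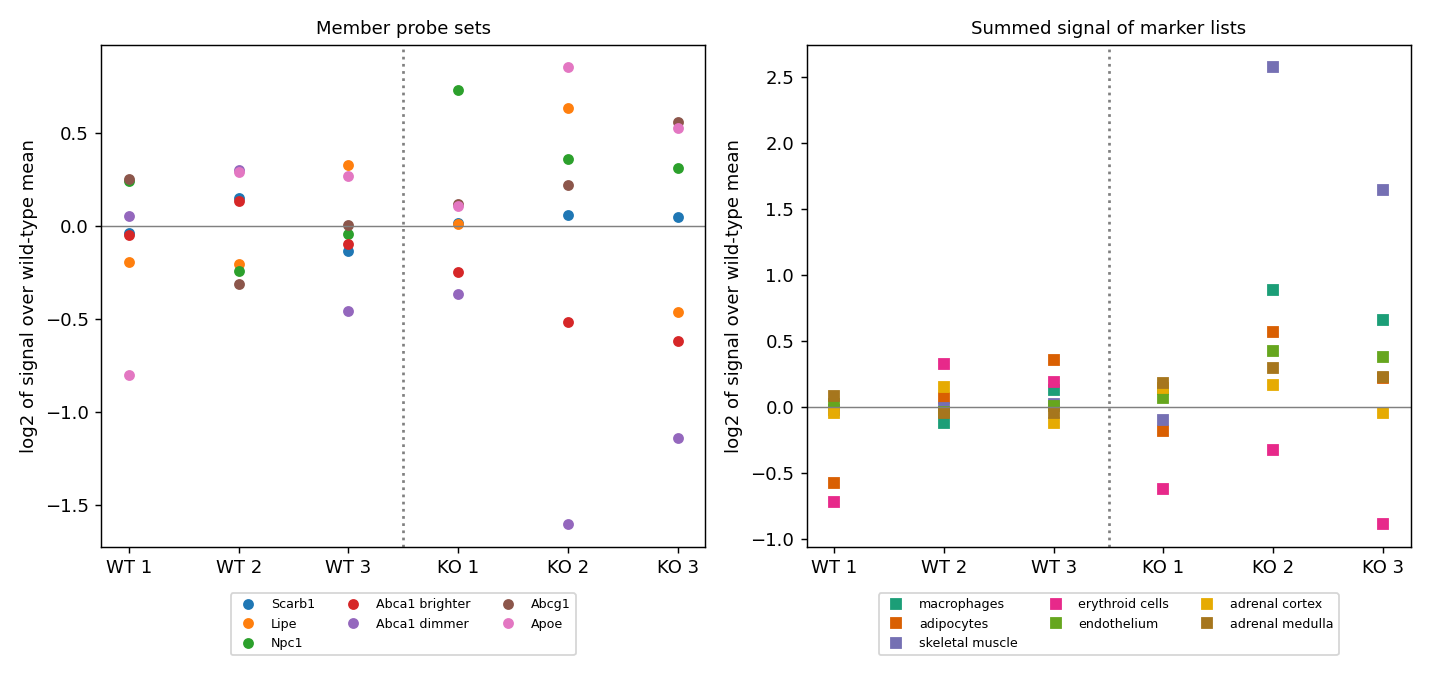
Log2 of each array's signal over the wild-type mean for the 7 tested member probe sets (left) and for the summed signal of marker lists (right), for wild-type (WT) and knockout (KO) arrays 1 to 3. Skeletal muscle, macrophage, endothelial and medullary sums are highest on knockout arrays 2 and 3, where both Abca1 probe sets are lowest. Npc1 is highest on knockout array 1.

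Of the other marker lists, the endothelial and medullary sums lay higher on all knockout than on all wild-type arrays, and the erythroid, cortex and liver sums overlapped. The summed endothelial signal was 32884 to 42026 on knockout and 30584 to 31856 on wild-type arrays, and 8 of 9 genes had higher values, with values of 0.65 for Pecam1 and 0.20 for Cdh5. Erythroid markers summed to 74416 to 109476 on knockout and 83688 to 171984 on wild-type arrays. All 3 tested had lower values, such as Hba-a1 (-0.46) and Hbb-b2 (-0.74). The cortex markers summed to 497411 to 575251 and 471631 to 570898, with a median log2 change of 0.08. Medullary markers summed to 211097 to 228263 on knockout and 180446 to 197815 on wild-type arrays, with a median of 0.24. The 3 liver genes tested summed to 15855 to 34587 on knockout and 12410 to 34217 on wild-type arrays. Among them Alb had signals of 504, 2909 and 2811 in the knockout and 678 to 832 in wild type, Cyp2e1 and Cps1 had log2 changes of 0.36 and -0.22, and Ttr was too dim to test. 0 genes of these lists passed over all probe sets.

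Outside synthesis, no other gene of the pathway lists passed either. Across 6 lists of uptake, sensing, LXR, storage, movement and efflux genes, which include the members, 41 genes were tested by their brightest probe set and 0 passed over all probe sets in limma. Of these 41, 6 (14.6%) had an unadjusted p under 0.05 in limma, beside 11.3% over all probe sets. Of the 6, 5 had higher values (Pltp, Lrp1, Cidec, Pnpla2 and Npc1), beside 5.06% of all. The remaining 1, Abca1, had lower values, beside 6.25% of all. The groups did not overlap for 9 of the 41 (22.0%), beside 16.4% over all. The knockout lay above for 6 of the 41, beside 7.55% of all, and below for 3, beside 8.83%. The median log2 change was 0.03.

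In the uptake list, 0 of 4 tested genes passed and 1 had a lower value, with a median of 0.23. Lrp1, a large endocytic receptor that binds apolipoprotein E, read 6456, 6877 and 5949 on the wild-type arrays and 7913, 9030 and 8825 on the knockout arrays. The groups were apart, but the log2 change of 0.42 did not pass (limma adjusted p = 0.32). Scarb2, a lysosomal relative of Scarb1, had a value of -0.35. The lipoprotein lipase gene Lpl had one of 0.52 on its brighter probe set and 0.16 on the other. The former was 0.10 without wild-type array 1, 0.25 without knockout array 2, 0.91 without wild-type array 3 and 0.02 with knockout array 1 alone. In the sensing list, 0 of 4 passed and the median was 0.07. Srebf1, which encodes the SREBP forms of fatty acid synthesis and is a target of LXR, had a value of 0.33 with overlapping groups, and of 0.11 without knockout array 2 and 0.08 with knockout array 1 alone. Ufd1 and Vcp, whose products help degrade sterol-regulated proteins of the endoplasmic reticulum, had values of -0.35 and 0.13, and both were -0.05 with knockout array 1 alone. Without single arrays Ufd1 ran from -0.50 to -0.19 and Vcp from 0.03 to 0.31.

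In the LXR list, 0 of 5 passed and the median was 0.11. Nr1h3, the gene of LXR alpha, had a value of 0.11, and its partner Rxra had one of -0.09, which was 0.07 with knockout array 1 alone. Ncoa1, a coactivator of nuclear receptors, had a value of -0.45 and Cyp7b1, an oxysterol hydroxylase, one of 0.55. The other Cyp7b1 probe set lay under the limit for testing, with a value of -0.04 in the fit without that limit. Pltp encodes the phospholipid transfer protein, another known target of LXR. It read 957, 991 and 1085 on the wild-type arrays and 1322, 2627 and 2030 on the knockout arrays. The groups were apart in the direction opposite to Abca1. Its log2 change of 0.91 did not pass (limma adjusted p = 0.27), and it passed without knockout array 1 (1.18, adjusted p = 0.0438). With knockout array 1 alone it was 0.38. In the efflux list, to which Pltp belongs, 0 of 7 passed and the median was 0.26.

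In the ester storage list, 0 of 9 passed and the median was 0.01. Cidec, a lipid droplet protein also used as an adipocyte marker, read 1354, 988 and 1964 on the wild-type arrays and 2557, 3294 and 2203 on the knockout arrays. The groups were apart, with a log2 change of 0.93 (limma adjusted p = 0.271). The adipocyte markers Adipoq and Fabp4 had values of 0.64 and 0.01, and the adipocyte list had a median of 0.01. Pnpla2, the gene of adipose triglyceride lipase, had a value of 0.38 (adjusted p = 0.384; 0.23 with knockout array 1 alone), and Abhd5, its activator, had one of -0.40 (adjusted p = 0.445), with groups apart in opposite directions. Lipa, the lysosomal acid lipase gene, had a value of -0.32.

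Among genes that move cholesterol within the cell, 0 of 12 passed, 6 had higher and 6 lower values, and the median was -0.01. Tspo, an outer mitochondrial membrane protein, had a value of 0.18 and Lamp2, a lysosomal membrane protein, one of -0.33 on its brighter probe set and 0.19 on the other. The former was -0.13 without knockout array 1 and -0.73 with that array alone. Star, whose product delivers cholesterol to the mitochondrial enzyme that starts steroid synthesis, had -0.13 and -0.50 on its 2 probe sets, neither past the threshold.

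Cholesterol synthesis stood apart in size on the same arrays. Of 17 genes tested, 8 fell, 0 rose and 9 did not pass, 16 of 17 had lower values, and the median was -1.53. Hmgcs1, at the head of the pathway, read 18024, 23897 and 19900 on the wild-type arrays and 6970, 6528 and 7072 on the knockout arrays, and fell 2.98-fold (limma adjusted p = 0.000991). The 3 knockout arrays, knockout array 1 included, lay close together and far below the wild-type arrays. Fdps, Sqle, Hsd17b7, Nsdhl, Cyp51, Msmo1 and Dhcr7 fell as well, and Idi1 (-2.18), Sc5d (-1.50) and Lss (-1.61) did not pass. Fdps, Hmgcs1 and Sqle kept their calls with any single array left out. Cyp51 lost its call without wild-type array 2 or 3 (adjusted p = 0.0559 and 0.0629), Msmo1 without knockout array 3 (0.0838), Nsdhl without knockout array 2 or 3 or wild-type array 2 (0.0601 to 0.113), and Hsd17b7 and Dhcr7 without most single arrays (up to 0.165 and 0.185). Sc5d passed without knockout array 1 (0.0457) and Idi1 without wild-type array 1 (0.00567). The list median was between -1.67 and -1.30 when single arrays were left out. The medians of the 6 other lists ranged from -0.01 to 0.26, and no test of the difference between lists was made.

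**Figure D4:**
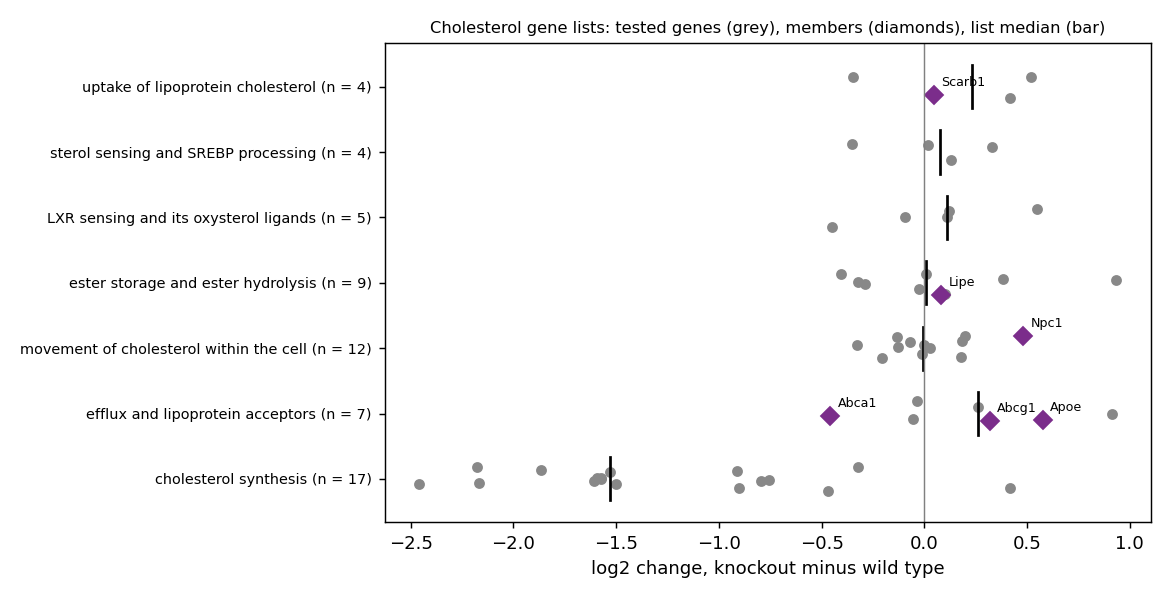
Log2 change (knockout minus wild type) of every tested gene in 7 cholesterol gene lists by its brightest probe set, with members as labelled diamonds and the list median as a bar. The genes of synthesis have a median of -1.53, and the 6 other lists have medians from -0.01 to 0.26.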

How the data were processed

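RNA of adrenal glands was hybridised to single-colour Affymetrix arrays, 3 per genotype, grouped by title. The authors deposited linear intensities, 1 per probe set. They come from MAS5, per the submitters' processing notes, and its settings are not given in these sources. The mean after trimming 2% at each end was 2501 on every array, so nothing was rescaled. Of 12488 probe sets, 66 controls were left out; 10833 had 1 gene symbol, updated by Entrez identifier, 396 had several and 1193 were not listed. Values were transformed as log2(signal + 16), which understates changes of dim genes. Probe sets with a mean under the 40th percentile (a signal of 582) were left out. The 7453 others entered limma 3.58.1 (R 4.3.3, eBayes with trend), with Benjamini-Hochberg adjustment over all of them and a threshold of 0.05; the fit was tested on simulated data. Errors of log2 changes are SE. Precision rests on the number of arrays, and p-values measure the spread among these mice.

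The members and lists were chosen with earlier results of these data known, and lists are described by counts and medians without a test. Each gene stands in its list by its brightest tested probe set. Genes named are the members, Chga, list genes past the threshold with the 3 next smallest p-values, and the first 2 markers of each list with Acta1. Npc2, Nr1h3, Lipa, Star, Insig2, Scap, Cyp2e1, Cps1, Vldlr, Apod and the dim macrophage markers were named after their values were seen. So were the second probe sets of Lamp2, Lpl, Cyp7b1 and Csf1r. Promoter windows are from RefSeq, GRCm38.p6; 6 of 9 members matched.

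The replicate numbers were not taken as pairs. Deviations of same-numbered arrays correlated with r of 0.26, -0.035 and -0.039. Those of differently numbered arrays had r from -0.18 to 0.25. The highest of these were 0.25 for knockout array 2 with wild-type array 3 and 0.16 for knockout array 3 with wild-type array 2. Alternatives tried were pseudocounts of 1 and 64, no filter or a limit at the 60th percentile, median, quantile or cyclic loess normalization, robust or untrended eBayes, array weights, the replicate block, each array left out, and knockout array 1 alone.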

Additional observations from a re-analysis of the deposited data

How the results depend on the processing

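0 member probe sets passed under any of the 18 alternatives. Npc1, both Abca1 probe sets, Abcg1 and Apoe kept their direction in all 18, with ranges of 0.35 to 0.75, -0.56 to -0.25, -1.33 to -0.33, 0.13 to 0.45 and 0.19 to 0.77. Scarb1 became -0.010 with quantile and -0.020 with cyclic loess scaling and ran from -0.016 to 0.13 with single arrays left out, and Lipe from -0.20 to 0.34. The 33 calls over all probe sets became 17 without the intensity trend, 13 with knockout array 1 alone and 15 to 141 with single arrays left out. The highest count was without knockout array 1, and the counts were 15, 17 and 21 without knockout array 3, wild-type array 2 and wild-type array 3. The cause was not tested. With the replicate number as a block the count was 57, but not every array correlated best with its own number, so the numbers were not taken as pairs. The block changed no member's call, and Idi1 and Lss passed with it. The limma adjusted p of Apoe was 0.138 with the block and 0.50 without it. Of the member probe sets, 4 rather than 3 had an unadjusted p under 0.05 with the block. With knockout array 1 alone, Vcp became -0.047 and Rxra 0.071, and the medians of ester storage and efflux were 0.10 and -0.00049. With single arrays left out these medians ran from -0.20 to 0.065 and from 0.017 to 0.41, and Rxra from -0.18 to 0.0026. Of the 8 synthesis genes that fell, Fdps alone kept its call in all alternatives. Precision was limited by 3 arrays per group: the median SE of a log2 change was 0.19 for the member probe sets tested and 0.21 for all.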

Other observations

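Some lipoprotein genes lay under the limit for testing and were picked out after their values were seen. Vldlr, the very low-density lipoprotein receptor gene, read 258, 311 and 410 on the wild-type arrays and 172, 95.3 and 54.5 on the knockout arrays on 1 probe set, so that the groups were apart. Its other probe set, at 451 to 478 and 228 to 516, overlapped. Apod, the gene of a lipocalin carried on high-density lipoprotein, read 739, 80.4 and 75.8 on the wild-type and 1941, 211 and 615 on the knockout arrays, with overlapping groups. In limma without a filter on dim probe sets, the adjusted p were 0.415 and 0.818 for the Vldlr probe sets and 0.642 for Apod.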
